A study of Mus musculus and Homo sapiens with 18 samples.

Results

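The background of a human dCas9 ChIP-seq experiment was described from 2 deposited peak lists of 293FT cells that received no guide RNA. One list came from an anti-HA immunoprecipitate (IP) and the other from input chromatin of cells with the same label. The members were all peaks of these 2 lists, 63 from the IP and 49 from the input, taken by sample title and not by any measured value. They made up 112 of the 19007 peaks in the 4 human lists and of the 53617 peaks in the 16 lists of the series.

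Catalytically inactive Cas9 (dCas9) is led to DNA by a single guide RNA (sgRNA), which pairs with sequence beside a short protospacer-adjacent motif, and it stays there without cutting. An antibody to the HA tag on dCas9 recovers the chromatin it holds. An IP without sgRNA shows what is recovered with no guide to direct the protein. Input is fragmented chromatin sequenced without an antibody and shows where reads pile up regardless of dCas9. In such libraries pile-ups are known from collapsed repeats next to centromeres and from regions of raised copy number. 293FT is a human embryonic kidney cell line derived from HEK293 that carries the SV40 large T antigen, and HEK293 derivatives are known for rearranged chromosomes.

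The 4 human samples were all 293FT. Both guide samples were labelled transient, had 20 ug of EMX1-sg1 or EMX1-sg3 transfected and were precipitated with anti-HA. EMX1 encodes a homeobox transcription factor of the developing forebrain. The control IP was precipitated with the same antibody, the input with none, and the treatment of both is given as none, so the labels do not say whether these cells held any dCas9. Each of the 4 groups was 1 library. No difference below therefore carries a test between samples, and the intervals (exact Clopper-Pearson, 95%) cover counting error only. Where a count is 0, the share it allows is given as 3 counts of the total, which is not the upper end of that interval. The lists have no column of reads or tags, and depth per library is therefore unknown. Positions are in hg19, counted from 1. No hg19 annotation was used, so peaks are given by position and not by gene.

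The IP background was a thin scatter of low, narrow peaks. It reached 20 of the 23 chromosomes examined (1 to 22 and X), with 8 peaks on chromosome 3, 7 each on chromosomes 2 and 5, and 5 each on chromosomes 1, 11 and 14. Chromosomes 10 and 12 held 4 peaks each, chromosomes 6 and X held 3 each, and chromosomes 4 and 19 held 2 each. Chromosomes 7, 8, 13, 15, 17, 20, 21 and 22 held 1 each. Chromosomes 9, 16 and 18 had none, where a count of 0 of 63 allows a share of up to 4.76%. The largest share, on chromosome 3, was 12.7% (interval 5.65 to 23.5%). This interval held the chromosome's 6.57% of the spanned genome. That span runs from the first to the last peak of any human list on each chromosome and came to 2928 Mb.

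The input background was gathered on fewer chromosomes, with chromosome 13 far ahead. That chromosome held 15 of the 49 input peaks, or 30.6% (interval 18.3 to 45.4%), but 3.23% of the span. The IP had 1 peak of 63 there, or 1.59% (0.0402 to 8.53%), and the EMX1-sg1 and EMX1-sg3 lists had 1.20% and 2.70% of their peaks there. Chromosomes 4 and X followed with 6 input peaks each, chromosome 6 had 4, and chromosomes 5, 7 and 18 had 3 each. Chromosomes 1, 2, 3, 9, 10, 11, 12, 14 and 16 had 1 each. The other 7 chromosomes (8, 15, 17, 19, 20, 21 and 22) had none.

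**Figure D1:**
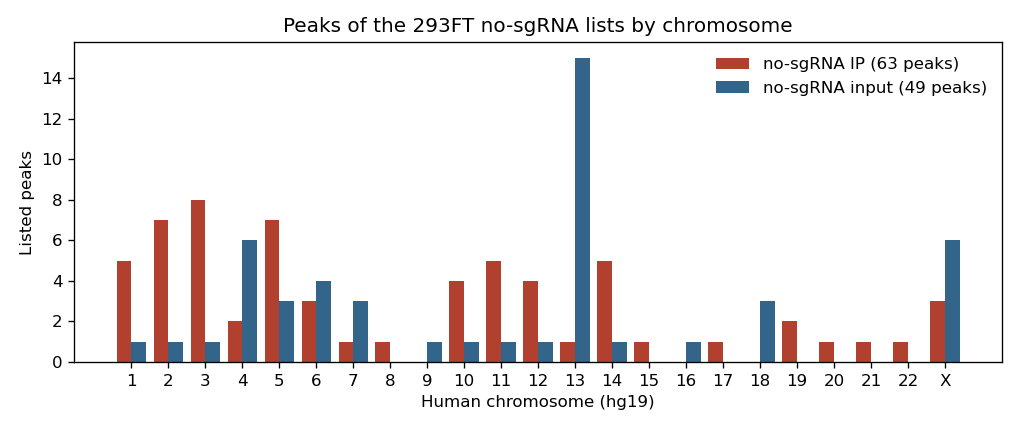
Number of listed peaks on each human chromosome (hg19) in the no-sgRNA IP (63 peaks) and the no-sgRNA input (49 peaks), 1 library each. The input bar on chromosome 13 stands at 15 peaks, whereas the highest IP bar is 8, on chromosome 3.

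The chromosome sets of the lists were unlike. Chromosomes 4, 13, 18 and X together held 61.2% of the input peaks (30 of 49, interval 46.2 to 74.8%) and 9.52% of the IP peaks (6 of 63, 3.58 to 19.6%), for 17.6% of the span. Chromosomes 2, 3 and 5 held 34.9% of the IP peaks (22 of 63, 23.3 to 48%) and 10.2% of the input peaks (5 of 49, 3.40 to 22.2%), for 21% of the span. These sets were put together after the counts were seen, so their shares are a description. Chromosomes 17, 19 and 22, which are known to be rich in genes, held 23.1% of the EMX1-sg1 peaks and 7.85% of the EMX1-sg3 peaks. They held 4 of 63 IP peaks (6.35%, 1.76 to 15.5%) and 0 of 49 input peaks, which allows up to 6.12%, for 5.93% of the span.

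No position was common to both backgrounds. Not one of the 63 IP peaks shared a base with an input peak, and none lay within 100 kb of one. That zone was only 0.325% of the span, so a count of 0 is near its share and does not set the backgrounds apart. Only 1 pair lay within 1 Mb, a zone of 2.79% of the span, on chromosome X. Its IP peak at chrX:138362084-138362685 (score 56.52) was 415 kb from the input peak at chrX:138777712-138778416 (score 64.63). For the 55 IP peaks on a chromosome that also had an input peak, the median distance to it was 39.3 Mb. A count of 0 of 63 allows a shared share of up to 4.76%. The rule of the authors' filter is not known here, and neither is whether it removed positions common to several lists.

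The median widths of both lists were similar, and the highest and widest peaks were in the input. Median width was 599 bp in the IP (quartiles 543 and 676.5, range 392 to 950) and 579 bp in the input (556 and 704, range 473 to 2611). The 95% intervals of these medians, 573 to 624 and 566 to 635 bp, overlapped. The EMX1-sg3 peaks had a median of 651 bp and the EMX1-sg1 peaks 1032 bp. No IP peak was wider than 1000 bp, while 5 input peaks were.

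The score is the authors' own value for each peak. It ran from 50.11 to 90.91 in the IP with a median of 58.55, and from 50.09 to 231.35 in the input with a median of 56.03. Below a score of 60 lay 35 of the 63 IP peaks and 33 of the 49 input peaks, near the lowest value in either list. At 100 or above lay 0 IP peaks and 2 input peaks. The medians of the EMX1-sg1 and EMX1-sg3 lists were 84.41 and 83.18, and their lowest scores 50.01 and 50.06. All of these lists thus began just above 50, and each median describes only peaks above that value. Since depth is unknown, scores of different lists may not share a scale.

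**Figure D2:**
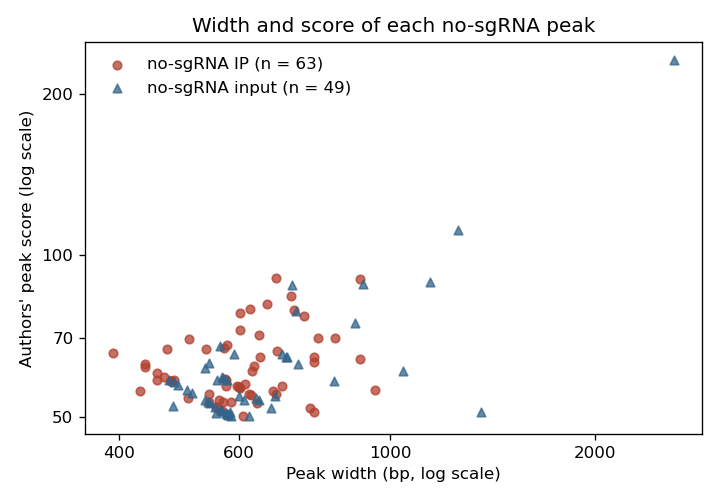
Width (bp, log scale) against the authors' peak score (log scale) for each of the 63 IP peaks (circles) and 49 input peaks (triangles). Most points of both lists crowd at the lower left, with a score under 70, and the input peak at the upper right, 2611 bp wide with a score of 231.35, stands alone.

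The highest IP peak, at chr3:98062744-98063424, was 681 bp wide with a score of 90.91, and the nearest EMX1-sg1 peak was 493 kb away. Close behind came chr5:43389600-43390502 with a score of 90.53, which at 903 bp was also the second widest. These 2 scores stood a little above the next 3, so the IP list had no peak apart from the rest. The next were chr2:233006571-233007285 (score 84.01), chr14:32406922-32407580 (81.21) and chr1:39766203-39766824 (79.52). The widest IP peak, chr1:109387859-109388808, spanned 950 bp but scored only 56.11. The third widest, chr14:30683451-30684352, spanned 902 bp and scored 64.10. Width and score thus did not single out the same IP places, apart from the one on chromosome 5 (Spearman rho over the 63 peaks 0.22).

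In the input 1 place stood apart. It was chr16:33973470-33976080, 2611 bp wide with a score of 231.35, and the list's only peak on chromosome 16. The second was chr13:65441422-65442681, 1260 bp wide with a score of 111.76. The third, chrX:102382069-102383214, was 1146 bp wide and scored 89.05. The next 2 were again on chromosome 13, at chr13:95443858-95444768 (88.53) and chr13:82664125-82664841 (88.07). The highest and the second highest input peak were also among the 3 widest, and the other of those 3, chr13:62467735-62469096, was 1362 bp wide and scored 51.05 (Spearman rho over the 49 peaks 0.36).

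The input peaks of chromosome 13 lay in 1 part of the chromosome. All 15 were between 62467735 and 95444768, a stretch of 33 Mb that is 34.8% of the span of this chromosome and 1.13% of the span of all chromosomes. Their median score was 64.70 against 54.00 for the 34 input peaks elsewhere, and their median width 717 against 572 bp. With a score of at least 60, chromosome 13 held 10 of the 16 input peaks left. The IP had 1 peak in this stretch, chr13:87452571-87453251 (score 55.13), 1300 kb from the nearest input peak. The stretch held 54 EMX1-sg1 peaks, or 1.64 per Mb against 6.16 per Mb over the span, and 7 EMX1-sg3 peaks, or 0.212 per Mb against 0.291. Chromosome 13 as a whole had 2.29 EMX1-sg1 and 0.243 EMX1-sg3 peaks per Mb, so most of the difference from the span was shared by the whole chromosome. Copy number of this stretch in the cells was not measured here, and its part in the result was not tested.

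The names of the peaks carry a running number, and on chromosome 13 of the input this number rose with position. It went from 22 at the first listed peak to 403 at the last, so that 381 numbers passed over 15 listed peaks. From there to the last listed peak of chromosome 18 it rose by only 58, to 461, the highest in the list. Between the first and second peak of the stretch, 1303 kb apart, 141 numbers passed. Between chr13:65566341-65567386 and chr13:77293975-77294800, 11.7 Mb apart, 142 passed. After that the steps were small, from 1 to 16. No source used here says what the skipped numbers stood for. The 49 input peaks carry 46 distinct names, so the numbering is not a single count.

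**Figure D3:**
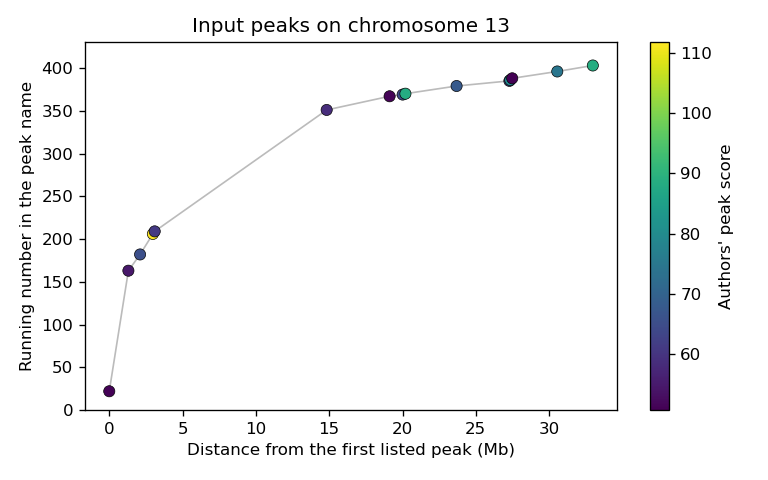
Running number in the peak name against distance from the first listed peak (Mb) for the 15 input peaks of chromosome 13, coloured by the authors' score. The number climbs from 22 to 351 over the first 14.8 Mb, where 6 peaks are listed, and from 351 to 403 over the rest.

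Neither list was tightly clustered. In the IP no 2 peaks lay within 100 kb of each other (0 of 63, which allows up to 4.76%). The closest pair, chr2:158866584-158867159 (score 67.96) and chr2:159440546-159441082 (66.84), was 573 kb apart. The median distance to the nearest IP peak on the same chromosome was 18.5 Mb, against 2.42 Mb in the input. Peaks alone on their chromosome, 8 in the IP and 9 in the input, have no such distance and were left out. In the input 2 of 49 peaks were within 100 kb of each other, at chr13:89754735-89755277 (score 62.87) and chr13:89812450-89813176 (78.89), 57.2 kb apart. No cluster of 3 or more peaks formed at that distance in either list.

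At 1 Mb the lists differed more. In the input 14 of 49 peaks (28.6%, interval 16.6 to 43.3%) had a neighbour within 1 Mb, and 10 of these were on chromosome 13. They formed a run of 4 peaks over 1795 kb from 63772253 (scores 54.69, 65.43, 111.76 and 60.92). A run of 3 covered 1080 kb from 81584344 (51.34, 64.70 and 88.07), and a second run of 3 covered 193 kb from 89754735 (62.87, 78.89 and 50.71). The other 4 were a pair on chromosome 4 from 149986840 to 150168696 and a pair on chromosome 5 from 99852858 to 100273483. In the IP 4 of 63 peaks (6.35%, 1.76 to 15.5%) had such a neighbour, as pairs on chromosomes 2 and 3. These runs and pairs were named after their values were seen.

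Peaks next to centromeres were few. Against the centromere gaps of the hg19 assembly, where no sequence is placed, 0 of the 63 IP peaks and 2 of the 49 input peaks (4.08%, interval 0.498 to 14%) lay within 2 Mb, a zone of 4.58% of the span. The 2 input peaks were the highest of the list, chr16:33973470-33976080, which was 1.36 Mb from the gap, and chr3:94890574-94891139 (score 59.24), which was 1.39 Mb from it. The nearest IP peak to a gap was chr6:64487557-64488155 (score 56.74), at 2.66 Mb, and chr5:43389600-43390502, the second highest of its list, was at 3.02 Mb. Within 5 Mb lay 6 IP peaks (9.52%, 3.58 to 19.6%) and the same 2 input peaks, for 8.76% of the span. Both zones count the gaps themselves, which were 1.95% of the span and can hold no peak. The span's shares thus overstate the sequence where a peak could lie, and shares near centromeres cannot be called low against them. Within 2 Mb were 1.08% of the EMX1-sg1 list and 2.35% of the EMX1-sg3 list.

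The longest stretch without an EMX1-sg1 peak on each chromosome gave a second view. On 16 of the 23 chromosomes this stretch held the centromere gap, and on the other 7 it lay elsewhere. No IP peak was inside such a stretch and 3 of 63 were within 2 Mb of one (4.76%, interval 0.993 to 13.3%). The input had 4 of 49 peaks inside (8.16%, 2.27 to 19.6%) and 5 within 2 Mb (10.2%, 3.40 to 22.2%). Of the span, 5.06% was inside and 7.86% within 2 Mb, values that lie within the intervals of both lists. Where a stretch held the centromere gap, these shares count the gap as well. Those inside were the chromosome 16 peak, chr18:35773067-35773600 (score 53.68), chr18:38523888-38524368 (57.95) and chrX:84296044-84296633 (65.47). On chromosomes 18 and X the stretch was not at the centromere. EMX1-sg1 peaks cannot be inside by construction, and 1.41% of EMX1-sg3 peaks were.

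No control peak coincided with a guide peak in the deposited lists. The filter and the caller's control library are not known here. If either removed shared positions, the lack of overlap was fixed in advance. None of the 63 IP or 49 input peaks shared a base with an EMX1-sg1 or EMX1-sg3 peak or lay within 1 kb of one, where 0 of 63 and 0 of 49 allow up to 4.76% and 6.12%. EMX1-sg1 peaks covered 0.804% of the span and, with 1 kb on each side, 1.98%. For EMX1-sg3 peaks these shares were 0.0202% and 0.0782%. Within 10 kb of an EMX1-sg1 peak lay 4 IP peaks (6.35%, interval 1.76 to 15.5%) and 1 input peak (2.04%, 0.0517 to 10.9%). The span's share was 9.93%, within both intervals. None of either list lay within 10 kb of an EMX1-sg3 peak, a zone of 0.598% of the span, so a count of 0 says little there.

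The 4 IP peaks within 10 kb were on 3 chromosomes. The closest, chr11:115524398-115525227 (score 70.04), was 4.14 kb from an EMX1-sg1 peak that scored 298.53. On chromosome 14, chr14:71952883-71953348 (59.25) was 6.14 kb from a guide peak scoring 60.51, and chr14:32406922-32407580 (81.21) was 6.64 kb from one scoring 179.50. The fourth, chr5:171864399-171865024 (60.84), was 7.56 kb from a guide peak scoring 72.62. The input peak, chr4:76655918-76656494 (50.57), was 5.04 kb from one scoring 71.75.

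Beyond that range IP peaks lay nearer to EMX1-sg1 peaks than input peaks did. The median distance was 75.2 kb for the IP (quartiles 39.7 and 176, range 4.14 to 1517 kb) and 357 kb for the input (150 and 721, range 5.04 to 1358 kb). The 95% intervals of the medians, 63.5 to 112 kb and 246 to 478 kb, did not overlap, though peaks of 1 library are not replicates. Within 100 kb lay 58.7% of the IP peaks (37 of 63, interval 45.6 to 71%) and 20.4% of the input peaks (10 of 49, 10.2 to 34.3%). Of the span, 41.1% was within 100 kb, and of the EMX1-sg3 peaks, 55.1% (470 of 853, 51.7 to 58.5%). The IP was thus above the span's share at 100 kb, whereas the input was below it. At 10 kb the intervals of both lists held the span's 9.93%. Counted from the guide, 0.310% of EMX1-sg1 peaks (interval 0.235 to 0.403%) were within 100 kb of an IP peak. This was below that zone's 0.432% of the span, so guide peaks were not more frequent around the IP peaks at this distance.

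**Figure D4:**
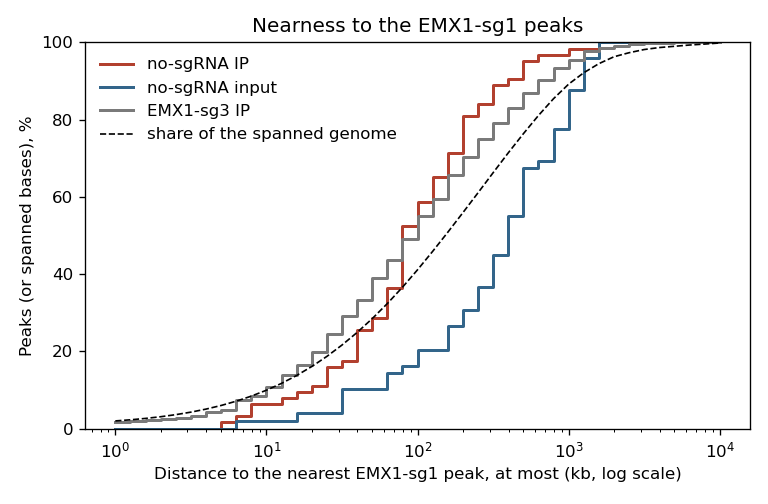
Share of the peaks of each list (%) whose nearest EMX1-sg1 peak is at most the given distance away (kb, log scale), for the no-sgRNA IP, the no-sgRNA input and the EMX1-sg3 IP; the dashed line is the share of the spanned genome. At 100 kb the IP stands at 58.7%, the EMX1-sg3 list at 55.1%, the span at 41.1% and the input at 20.4%.

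The shares within 100 kb were also set beside what the chromosomes of each list would give. Weighted by the chromosomes of its own peaks, 41.8% of the sequence was within 100 kb of an EMX1-sg1 peak for the IP and 34% for the input. The interval of the observed IP share, 45.6 to 71%, lay above its weighted value. That of the input share, 10.2 to 34.3%, held its weighted value. Without chromosome 13 the input share was 20.6% (7 of 34) and the IP share 59.7% (37 of 62). With EMX1-sg1 peaks of a score of at least 100 only, the shares were 25.4% for the IP and 8.16% for the input.

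More EMX1-sg1 peaks surrounded the IP peaks than the input peaks. Within 1 Mb of its centre an IP peak had a median of 7 EMX1-sg1 peaks (quartiles 4.5 and 14.5, range 0 to 63) and an input peak a median of 3 (1 and 5, range 0 to 26). Points placed every 100 kb over the span had a median of 5 (2 and 12), and EMX1-sg3 peaks a median of 8 (4 and 20). Without chromosome 13 the input median was 2.5. Counted from the guide, 745 of 18042 EMX1-sg1 peaks (4.13%, interval 3.84 to 4.43%) were within 1 Mb of an IP peak, for 4.18% of the span, so the total near the IP peaks was that of the span. Within 1 Mb of an input peak were 160 (0.887%, 0.755 to 1.03%), for 2.79% of the span. This count was chosen after the distances were seen and is not independent of them.

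More than 20 EMX1-sg1 peaks surrounded 10 IP peaks (15.9%, interval 7.88 to 27.3%) and 1 input peak (2.04%, 0.0517 to 10.9%). Of the points every 100 kb, 16.5% had as many, about the share of the IP peaks, and of the EMX1-sg3 peaks, 24.6%. The IP peaks with most were chr19:41580460-41581032 (score 58.69) with 63, chr19:15465543-15466102 (53.70) with 50 and chr11:75730851-75731446 (56.96) with 42. The 1 input peak was chr7:158672320-158672930 (53.80), with 26. No EMX1-sg1 peak lay around 6 input peaks (12.2%, 4.63 to 24.8%, against 9.42% of the points), of which chr14:83815400-83815953 (52.20) was farthest from one, at 1358 kb. The same was so for 1 IP peak (1.59%), chr1:79962672-79963308 (53.12), at 1517 kb. These positions were named after their values were seen.

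**Figure D5:**
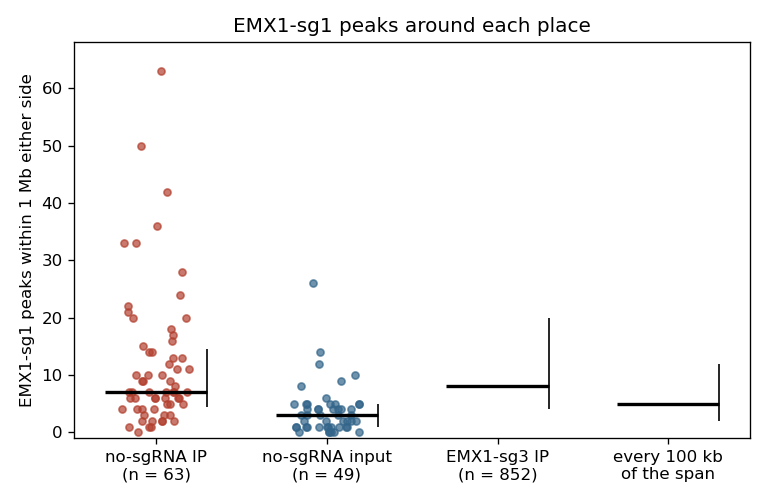
EMX1-sg1 peaks within 1 Mb either side of each no-sgRNA IP peak (n = 63) and input peak (n = 49), drawn as points, with the median (thick line) and quartiles (thin line) for these, for EMX1-sg3 (n = 852, those on chromosomes 1 to 22 and X) and for points every 100 kb of the span. The medians are 7, 3, 8 and 5, and the IP points reach 63 whereas the input points reach 26.

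The nearness to EMX1-sg3 peaks was about that of the span for both lists. Within 100 kb lay 4 of 63 IP peaks (6.35%, interval 1.76 to 15.5%) and 3 of 49 input peaks (6.12%, 1.28 to 16.9%), for 5.59% of the span. The median distance was 1.08 Mb for the IP (95% interval 604 to 1541 kb) and 1.33 Mb for the input (811 to 2288 kb). The closest IP peak was chr1:79962672-79963308, at 60.6 kb, which had no EMX1-sg1 peak within 1 Mb. The closest input peak was chr4:162568829-162569385 (score 58.66), at 17.1 kb.

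In both lists the peaks near EMX1-sg1 peaks had scores that overlapped those of the others. IP peaks within 100 kb of an EMX1-sg1 peak had a median score of 58.37 (n = 37) and those farther away 62.31 (n = 26). For the input these were 54.00 (n = 10) and 58.38 (n = 39). The ranges overlapped almost fully in the IP, at 50.43 to 90.53 and 50.11 to 90.91. In the input they were 50.57 to 89.05 and 50.09 to 231.35, so the highest input scores were all farther away.

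No background peak was listed at a place on chromosome 2 that both EMX1 guides had in common. Whether the authors' filter would have kept a peak shared with the guide lists is not known here. EMX1-sg1 had a peak there at chr2:73160521-73161509 and EMX1-sg3 at chr2:73160459-73161547. Chromosome 2 is where EMX1 is known to lie. Over all chromosomes, 2 of the 853 EMX1-sg3 peaks shared a base with an EMX1-sg1 peak, and only this place is described. The nearest IP peak, chr2:72552866-72553336 (score 66.83), was 607 kb away, and the nearest input peak, chr2:161487019-161487498 (52.45), was 88.3 Mb away. Seen from the guides, 56 of the 18042 EMX1-sg1 peaks (0.310%, interval 0.235 to 0.403%) were within 100 kb of an IP peak, a zone of 0.432% of the span. Within 100 kb of an input peak were 14 (0.0776%, 0.0424 to 0.130%), for 0.325% of the span. Of the 853 EMX1-sg3 peaks, 4 and 3 were.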

How the data were processed

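Anti-HA ChIP-seq and input DNA of 293FT cells were sequenced, and the authors deposited 1 peak list per sample. The aligner was Bowtie, without a version, and the human build hg19, per the submitters' processing notes, which also list mm9. Peak names begin with MACS. No source used here states the caller's settings, its control library or the filter. Each deposited peak has a score whose scale is not stated. It was used to rank and filter peaks within a list, and score ranges of several lists are set side by side without a test. The sixth column, another deposited value with no stated meaning (3 at every control peak), was not used.

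Starts were taken to count from 0. Distances are edge to edge. Sharing meant 1 bp in common. Analyses used Python 3.11.15, pandas 2.3.3, numpy 2.4.6 and scipy 1.17.1, and the interval functions were tested on simulated peaks. Intervals of medians are binomial order-statistic intervals at 95%. Chromosome Y was left out of the span. The hg19 centromere gaps were entered by hand from the known assembly; 0 of 19005 peaks overlapped them. Sequences were not analysed here.

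The members, lists and rules were chosen with earlier results of these data known. Positions named by rule were the 5 highest and 3 widest peaks of each control list, control peaks within 10 kb of another list's peak, those nearest the EMX1 peak, and clusters of 3 within 100 kb.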

Additional observations from a re-analysis of the deposited data

How the results depend on the processing

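No paired analysis was possible because each group held 1 library and no result comes from a test; for the same reason no replicate could be left out. Of 66 alternatives over 18 results, 38 left the value within its interval (or a number of peaks within 1.5 times). With a score of at least 60, the IP kept 28 peaks and the input 16, and at 100 they kept 0 and 2. At 60 the share on chromosome 13 was 0% for the IP and 62.5% for the input, median widths were 637 and 722 bp, and median scores 67.51 and 66.65. Clustered shares were 0% for the input at 10 kb and without chromosome 13, and 6.35% (IP) and 28.6% (input) at 1 Mb. The IP share at the longest stretch was 0% both inside it and within 2 Mb of the hg19 centromere gaps, the latter chosen after seeing the data. Near EMX1-sg1 the shares were 6.35% (IP) and 2.04% (input) at 10 kb, 98.4% and 87.8% at 1 Mb, and 25.4% and 8.16% with guide scores of at least 100. Near EMX1-sg3 they were 0% for both at 10 kb, 46% and 40.8% at 1 Mb, and 1.59% and 0% with guide scores of at least 100. Leaving out chromosome 13 was added after seeing the data. The unknown depth limits every comparison of numbers and scores between lists.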

Other observations

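Some background peaks were alike in both width and score. In the IP, 3 peaks of 476 bp each had a score of 58.37, at chr3:57250162-57250637, chr7:22390321-22390796 and chr11:14220640-14221115. In addition, 2 IP peaks of 599 bp scored 56.74, at chr5:24497029-24497627 and chr6:64487557-64488155. In the input, 2 peaks of 565 bp scored 51.41, at chr6:123197933-123198497 and chr12:95918184-95918748. These were the only exact matches of width and score within either list.

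The running numbers in the names also differed between the backgrounds. They reached 2277 in the IP for 63 listed peaks and 461 in the input for 49. The IP's highest number was 4.94 times the input's while its list was 1.29 times as long. Across chromosomes the numbers were not 1 rising series. In the IP they fell from 2277 at chr12:55269422-55270000 to 123 at chr13:87452571-87453251. The highest numbers of the lists may therefore not be like counts. Among chromosomes with 2 or more listed peaks, the numbers rose with position on all 7 in the input and on 11 of 12 in the IP. The exception was chromosome 1 of the IP, where the peak at chr1:39766203-39766824 has the number 341 and the next 4 have 12, 17, 22 and 25.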
